A study of Mus musculus with 19 samples.

Results

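Di- and trimethylation of lysine 9 of histone H3 were compared in unperturbed mouse embryonic stem cells (ESCs), cultured cells able to form all tissues of the embryo, by chromatin immunoprecipitation and sequencing (ChIP-seq). The control libraries were taken by mark and genotype as labelled, which gave 6 of the 19 libraries of the series, 3 for dimethylation (H3K9me2) and 3 for trimethylation (H3K9me3). Each mark had 1 library from day 4 and 2 from day 8, numbered 1 and 2. A single input library of control chromatin without immunoprecipitation served as reference, and the 3 control libraries of H3K27me3, the mark of Polycomb, are quoted at a few genes. All of these libraries carried the same labels, genotype Wildtype, cell type ESC and background strain E14. The methods, by contrast, give the conditional *Dnmt1* line of the study as *Dnmt1* loxP/loxP ESCs of strain C57BL/6, in which tamoxifen switches on Cre, and do not say which line gave these controls, so it is open whether they carried the loxP alleles. ESCs were grown in serum with LIF, with or without feeder cells. The days are those of the matching knockout libraries. By their labels H3K9me2 was precipitated with an Abcam antibody and H3K9me3 with one of Active Motif, although the protocol text of both names the former. How far the libraries are independent cultures is not stated. The methods treat the ChIP-seq as a single measurement and call no significant differences from it. The libraries are taken as replicates here only because the labels number them, and all p-values measure only the spread between these libraries, which may be technical.

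H3K9me2 is laid down mainly by the EHMT1/EHMT2 (GLP/G9a) complex and is known from wide blocks of silent chromatin. H3K9me3 is written by SETDB1, which TRIM28 and KRAB zinc finger proteins bring to defined sequences such as retrotransposons and imprinting control regions, and by SUV39H1 and SUV39H2 at repeats near centromeres. Imprinting control regions carry DNA methylation and H3K9me3 on 1 parental allele, and the zinc finger protein ZFP57 binds there to the methylated hexamer TGCCGC.

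Each tile of 2 kb came with the log2 ratio of observed to expected reads, from which whole reads were recovered. H3K9me2 libraries held 14627174 to 22103840 reads in tiles, H3K9me3 libraries 17557643 to 19364620 and the input 19010249, and the median tile held 11 to 17 reads, so that single tiles were noisy and sums over larger features were firmer. Tiles with input at least 4-fold above expectation were left out. These 222 tiles held 1.33% to 1.64% of the reads of H3K9me2 libraries, 5.60% to 7.23% of those of H3K9me3 and 2.19% of the input. Every value compares a library with its own total, so a difference between the marks is one of relative coverage from 2 antibodies and gives no ratio of dimethylated to trimethylated nucleosomes. Below, a level is log2 ChIP over input, a difference is the H3K9me2 level minus the H3K9me3 level, and the 3 libraries of a mark are always given in the order day 4, day 8 library 1, day 8 library 2.

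At large scale the marks were alike but not the same. In 25549 windows of 100 kb, the log2 observed over expected reads correlated at 0.964 to 0.989 between H3K9me2 libraries, at 0.972 to 0.983 between H3K9me3 libraries and at 0.810 to 0.843 between the marks. Input itself correlated with H3K9me2 at 0.745 to 0.801 and with H3K9me3 at 0.692 to 0.729, and once input was subtracted the mean profiles of the marks correlated at 0.617. By rank (rho) the marks correlated less, at 0.616 to 0.688. The rank correlation of input was 0.303 to 0.347 with H3K9me2 and 0.120 to 0.158 with H3K9me3. For the subtracted profiles rho was 0.609. These are correlations across windows, which are not independent replicates, and the subtracted values share the counting error of the single input. Over the 24898 windows with at least 300 input reads, the median level was 0.03, 0.08 and 0.02 for H3K9me2 and -0.09, -0.13 and -0.10 for H3K9me3. Around these medians the distributions had different shapes.

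H3K9me2 had little room above input and a long tail of loss. Only 22, 0 and 10 windows reached 2-fold over input, and the highest lay 2.35-fold, 1.96-fold and 2.33-fold above it, whereas 1217, 1786 and 1024 windows lay at least 2-fold below it. H3K9me3 had 207, 272 and 209 windows at least 2-fold over input, with maxima of 4.63-fold, 6.24-fold and 3.93-fold, and 473, 799 and 837 windows at least 2-fold below. The skewness of the window levels was -1.05, -1.47 and -1.10 for H3K9me2 and 0.06, 0.10 and -0.12 for H3K9me3, without overlap (exact permutation test over the 6 libraries, two-sided p = 0.1, the smallest that 3 against 3 allows). The distance from the median to the 99th percentile was likewise shorter in every H3K9me2 library than in any H3K9me3 library, at 0.57 to 0.76 against 1.05 to 1.15 (exact permutation p = 0.1).

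**Figure D1:**
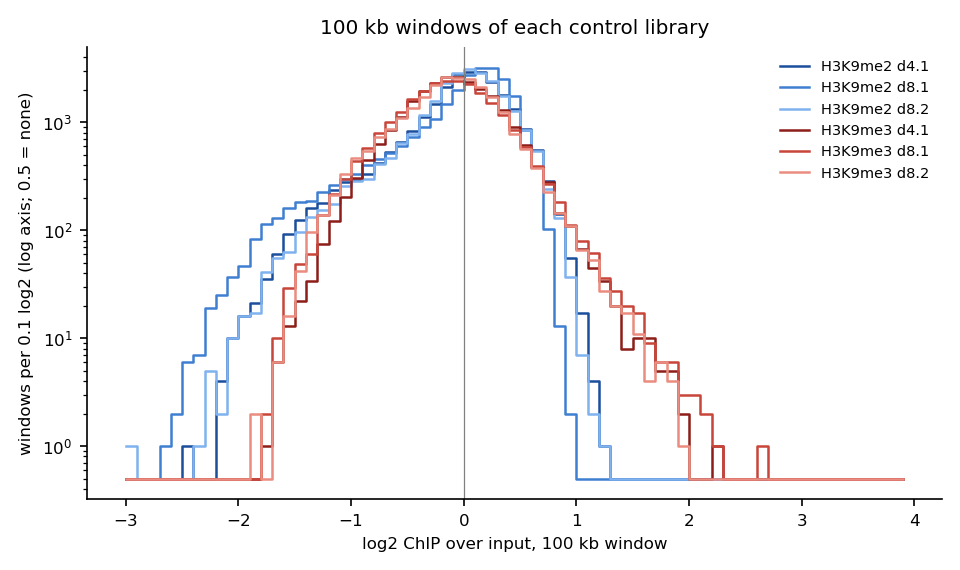
Number of 100 kb windows (vertical, logarithmic axis) at each log2 level of ChIP over input (horizontal, bins of 0.1) in each of the 3 H3K9me2 libraries (blue) and 3 H3K9me3 libraries (red), where 0.5 stands for no window. The blue lines reach further to the left and end at 1.23, and the red lines run on to the right as far as 2.64.

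At 100 kb, 209 windows were higher in H3K9me2 and 1891 were higher in H3K9me3 (limma, Benjamini-Hochberg adjusted p-value threshold 0.05 and a difference of at least 1.5-fold), which is 0.818% and 7.4% of the windows tested. At 2 kb, 70035 tiles (6.12%) were higher in H3K9me2 and 81730 (7.14%) in H3K9me3. The median window differed by 0.15 in favour of H3K9me2, and this offset bears on the split. After each library was centred on its own median window, the counts became 4 and 2740 windows and 25797 and 96677 tiles. The tile count of H3K9me2 also rested on single libraries, at 39475 without its day 4 library, 37978 without its day 8 library 2 and 44436 without H3K9me3 day 8 library 1. The windows higher in H3K9me3 had, on average, 13.1% high-copy sequence (sampled 31-mers found at least 50 times in the genome), against 5.34% in those higher in H3K9me2 and 8.35% over all windows tested. H3K9me3 was at least 25% above input in all of its libraries in 1242 of the 1891, and H3K9me2 in 57 of the 209, so that many of the latter windows were marked out by low H3K9me3, whose level was below input in all libraries in 184 of them.

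The windows with the largest differences, at least 5 Mb apart, showed both forms. On chromosome 6 from 88200001 to 88300000, over *Eefsec*, which encodes the elongation factor for selenocysteine, H3K9me2 was at 0.91, 0.66 and 0.89 and H3K9me3 at 0.19, 0.04 and -0.06, a difference of 0.76 ± 0.08 (SE, limma adjusted p = 2.0e-07). Here H3K9me2 was above input in every library and H3K9me3 close to it. On chromosome 5 from 63000001 to 63100000, which overlaps *Arap2*, H3K9me2 was itself below input at -0.20, -0.12 and -0.27 and H3K9me3 was lower still at -0.95, -0.94 and -0.87. A window of chromosome X from 97700001 to 97800000 holds *Awat1* and *Dgat2l6*, acyltransferases of wax and lipid synthesis, with *Igbp1* and *P2ry4*, and had H3K9me2 at 0.34, 0.33 and 0.41 and H3K9me3 at -0.40, -0.24 and -0.48. The fourth such window, on chromosome 16 from 94100001 at *Sim2*, had only 19.8 kb of assembled sequence. Of the 4 named for H3K9me3, 3 were at most 50 kb of assembled sequence with 13 to 49 input reads. The well covered one lay on chromosome 10 from 82800001 to 82900000 over *D10Wsu102e* and the magnesium transporter gene *Slc41a2*, where H3K9me3 stood at 2.21, 2.64 and 1.97 and H3K9me2 at -0.52, -0.74 and -0.48.

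Broad domains were defined per library as runs of at least 5 adjacent 10 kb windows, each at least 1.5-fold over input, among 243183 windows with at least 30 input reads. H3K9me2 domains covered 1.53%, 0.623% and 1.37% of the windows (mean 1.18% ± 0.485, SD, n = 3) and H3K9me3 domains 1.09%, 0.868% and 0.847% (mean 0.934% ± 0.132, n = 3). The ranges overlapped and no difference was shown (exact permutation p = 0.4, smallest possible 0.1). Domain length did not separate the marks either. The median was 50 to 60 kb for H3K9me2 and 60 kb in every H3K9me3 library, and the length-weighted mean was 77.7, 64.0 and 71.1 kb against 79.4, 76.0 and 77.8 kb (exact permutation p = 0.2). Which mark covered more depended on the level asked for. At 25% above input the mean share was 7.56% for H3K9me2 and 3.45% for H3K9me3, and at 2-fold it was 0.0115% and 0.150%. The order of the means thus turned with the threshold, which was not tested.

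Most windows in domains belonged to those of only 1 mark. Windows within a domain in all libraries of a mark numbered 708 for H3K9me2 and 1129 for H3K9me3, and 44 were common, 6.21% of the former and 3.90% of the latter. Over all windows 0.291% lay in H3K9me2 domains and 0.464% in H3K9me3 domains, and the overlap was not tested. The 664 windows of H3K9me2 alone had 46.9% GC and 2.15% high-copy sequence, and 63.6% touched a gene. The 1085 of H3K9me3 alone had 42.4% GC and 15% high-copy sequence, and 19.8% touched a gene. Over all windows the values were 41.8%, 7.18% and 46.7%. The marks differed in the level of the other mark in their domains. In the windows of H3K9me2 alone the median H3K9me3 level was still 0.52, and in those of H3K9me3 alone that of H3K9me2 was 0.02.

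The longest H3K9me2 domain common to its libraries ran for 120 kb on chromosome 19 from 58260001 to 58380000 over *Gfra1*, the GDNF receptor gene, with levels of 0.92, 0.82 and 0.84 and H3K9me3 at 0.57, 0.68 and 0.45. A run of 90 kb on chromosome 2 from 153680001 to 153770000 held *Sun5*, a gene of sperm, and 4 genes of the BPI-fold family, *Bpifb2*, *Bpifb6*, *Bpifb3* and *Bpifb4*, at 0.98, 0.80 and 0.93. Of the 5 longest H3K9me2 domains, 3 held no annotated gene. The 2 longest H3K9me3 domains measured 180 kb and lay on chromosome 7 from 34300001 and from 69840001, with H3K9me3 at 1.66, 1.82 and 1.65 in the former and H3K9me2 close to input at -0.13, -0.02 and -0.20. A neighbour of the former, from 34150001 to 34290000, held *Abpd*, of the androgen-binding protein cluster, at 1.77, 1.85 and 1.82.

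How far along the chromosome the levels stayed alike was measured without any threshold, from the covariance of log2 observed over expected reads between 2 libraries of a mark at a given distance, as a percentage of that at the same position. At 10 kb, H3K9me2 kept 67.3% ± 1.77 (SD over 3 pairs of libraries, which share libraries) and H3K9me3 63.2% ± 0.454. At 100 kb the values were 39.8% ± 1.90 and 37.5% ± 0.720, and at 1000 kb 19.4% ± 0.571 and 18.3% ± 0.159. The ranges over pairs did not overlap at 10 kb (65.4% to 68.9% against 62.7% to 63.5%) or at 1000 kb (18.8% to 19.8% against 18.1% to 18.4%), where H3K9me2 was higher, and they overlapped at 100 kb (37.7% to 41.4% against 36.7% to 38.0%). On autosomes alone 35.2% and 29.6% were kept at 100 kb, and after subtraction of input 34.9% and 27.3%.

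Reads of H3K9me3 were more concentrated. The 1% of tiles richest in another library of the same mark held 2.03%, 1.94% and 2.10% of H3K9me2 reads and 3.93%, 4.72% and 3.79% of H3K9me3 reads, without overlap (exact permutation p = 0.1). Focal tiles, at least 4-fold above expectation in every library of a mark and at least 2-fold above input, numbered 897 for H3K9me3 and 12 for H3K9me2. Of the 12, 10 were also focal for H3K9me3, 83.3% of the former and 1.11% of the latter. The 897 merged into 702 stretches, of which 82.6% were a single tile and 0.997% spanned 10 kb or more, the widest 14 kb. They held 0.514%, 0.665% and 0.481% of the reads of the H3K9me3 libraries and 0.0950% of the input reads. Without H3K9me3 day 8 library 2 the rule gave 1515 tiles, and without H3K9me2 day 8 library 1 it gave 20. Leaving out each library in turn gave 919 to 1515 tiles for H3K9me3 and 9 to 20 for H3K9me2. Fewer libraries then had to pass, and the level over input was summed over fewer.

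Where H3K9me3 was focal, H3K9me2 was mostly below input. With its 3 libraries summed, it was below input in 761 of the 897 tiles (84.8%). This was so in 55.6% of the 1189121 tiles with at least 1800 assembled bases and 5 input reads, the reference for all tile shares. The median was -0.94 in the focal tiles, beside 2.54 for H3K9me3, the measure that chose them. A prior of 2 reads was added to the sum and 2 to the single input, which lowers such levels where reads are few. The share and median may thus overstate the loss. Averaged over the stretches, H3K9me3 stood at 2.45, 2.81 and 2.36 in the central tile and at 0.85, 0.92 and 0.81 at 10 kb upstream, and was still at 0.15, 0.16 and 0.11 at 100 kb. H3K9me2 dipped to -0.39, -0.37 and -0.48 in the centre and was at -0.07, -0.11 and -0.09 at 10 kb upstream and at -0.15, -0.18 and -0.18 at 100 kb.

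**Figure D2:**
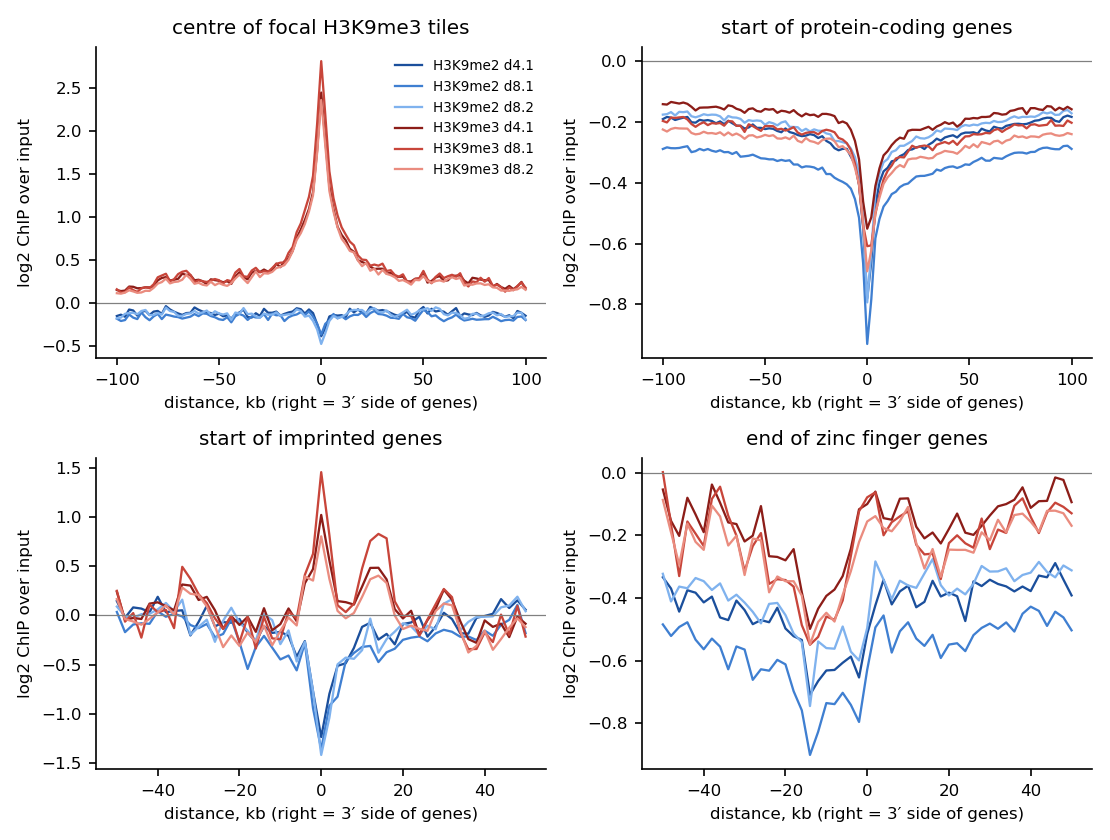
Log2 ChIP over input (vertical) against distance in kb (horizontal) in 2 kb tiles around focal H3K9me3 tiles, starts of protein-coding genes, starts of imprinted genes and ends of zinc finger genes, for the H3K9me2 libraries (blue) and H3K9me3 libraries (red), from reads summed over sites. H3K9me3 peaks and H3K9me2 dips at focal tiles and imprinted starts, and both marks dip at the starts of protein-coding genes.

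Of the 6 H3K9me3 tiles with the highest level over input, 3 lay between genes. The highest, on chromosome 5 from 23212001 to 23214000 and 29.7 kb from *Srpk2*, held 101, 184 and 124 reads in the H3K9me3 libraries, 2, 3 and 1 in the H3K9me2 libraries and 4 in the input. A tile on chromosome 10 from 79202001 to 79204000 covered coding exons of *Polrmt*, the mitochondrial RNA polymerase gene, with 194, 270 and 143 reads against 3, 10 and 5 and 10 in the input. Others lay in introns of *Gm16889* and *Gm20388* or between genes, 40.5 kb from *Polr3k* and 259 kb from *Gpd2*. The tile nearest to *Gpd2* had 80% high-copy sequence, and H3K9me2 was above input there, at 0.64 with its libraries summed. Of the H3K9me2 tiles, that on chromosome 1 from 90130001 to 90132000 in coding exons of *Heatr7b1* held 135, 119 and 101 H3K9me2 reads, 140, 130 and 105 H3K9me3 reads and 54 input reads, and so was high for both marks. The 6 named H3K9me2 tiles all had 34 or more input reads, well above the 15 of the median tile.

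Focal H3K9me3 tiles were rich in CpG sites for the genome, at 13.8 per kb against 8.24, and carried the hexamer TGCCGC more often, read on both strands. It occurred in 32.2% of them against 10.9% of all tiles, and 3 or more copies in 5.46% against 0.267%. The hexamer itself contains a CpG site, and the part of CpG density in this was not tested. Of the 897 tiles, 21 (2.34%) lay in a gene of the imprinted list, against 0.105% of all tiles. Of the 49 with 3 or more copies, 14 (28.6%) did, against 0.755% of all tiles with 3 or more copies. By the summed level described above, H3K9me2 was below input in 48 of the 49. The share of CpG-rich tiles (at least 80 CpG sites) among focal tiles was small, at 2.23%. Over all 8909 CpG-rich tiles both marks were below input, with medians of -2.38 for H3K9me2 and -1.20 for H3K9me3. These are summed levels too, which the prior lowers where reads are few.

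Among focal H3K9me3 tiles, 1 between genes on chromosome 1 from 173420001 held 37 copies of the hexamer, 19 of them within 150 bases. A tile in an intron of *Arhgap10* held 19, and a tile between genes 6.24 kb from *Snhg7* held 10. Stretches of 150 bases are shown from 4 focal tiles with fewer copies, 5 or 6 each, chosen after their values were seen. Each is the stretch of its tile that holds the most copies. They come from the NCBIM37 genome, plus strand, outside annotated exons, and capitals mark TGCCGC and its reverse complement GCGGCA. The tiles lie between genes 11.2 kb from *Meg3* (chr12:110766505-110766654), in an intron of *Trappc9* (chr15:72640338-72640487), in *Inpp5f* (chr7:135831370-135831519) and in *Peg3* (chr7:6682734-6682883).
Meg3: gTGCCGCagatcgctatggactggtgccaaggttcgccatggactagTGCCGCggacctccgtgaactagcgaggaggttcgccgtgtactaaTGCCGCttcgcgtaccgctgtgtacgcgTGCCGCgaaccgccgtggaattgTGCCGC
Trappc9: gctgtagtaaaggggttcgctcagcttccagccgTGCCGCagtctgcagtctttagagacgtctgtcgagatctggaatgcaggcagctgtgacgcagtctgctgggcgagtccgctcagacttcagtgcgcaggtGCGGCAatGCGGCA
Inpp5f: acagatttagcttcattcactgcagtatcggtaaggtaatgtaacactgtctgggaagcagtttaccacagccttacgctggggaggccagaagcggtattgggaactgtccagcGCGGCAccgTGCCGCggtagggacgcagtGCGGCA
Peg3: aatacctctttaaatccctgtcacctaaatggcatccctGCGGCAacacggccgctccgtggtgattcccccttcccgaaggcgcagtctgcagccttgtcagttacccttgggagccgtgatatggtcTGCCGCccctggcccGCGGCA
The tile near *Meg3* holds 5 copies, all within its stretch, and had H3K9me3 at 3.27, 4.04 and 3.05 and H3K9me2 at -1.59, -2.24 and -3.11. The *Trappc9* tile holds 6 copies and stood at 3.02, 3.51 and 2.34 against -0.61, -1.06 and -1.76. The *Inpp5f* tile was at 2.46, 3.20 and 2.43 against -1.42, -2.08 and -1.86, and the *Peg3* tile at 2.94, 3.56 and 2.50 against -1.78, -1.54 and -1.52. In all of these the 2 marks were far apart in every library. Several other focal tiles at imprinted genes had fewer copies in their densest stretch outside exons. It held 0 in *Grb10* and *Nap1l5*, 1 in a tile of *Gnas*, and 2 in *Igf2r*, *Snrpn*, *Mest* and *Plagl1*. In another tile of *Gnas*, which overlaps *Nespas*, it held 3, as in *Peg3*.

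Genes were then compared by their bodies, from start to end, and by promoters, the 1 kb upstream of the start, in whole tiles. The bodies of most genes carried less of either mark than input. The median level over 22859 gene bodies was -0.44 for H3K9me2 and -0.51 for H3K9me3, and 12812 were below input in all 6 libraries. A level at least 25% above input in all libraries was reached by 2125 bodies for H3K9me2, 1389 for H3K9me3 and 562 for both, which is 26.4% of the former and 40.5% of the latter. Both marks dipped at the starts of protein-coding genes, H3K9me2 to -0.78, -0.93 and -0.79 and H3K9me3 to -0.55, -0.61 and -0.69. The H3K9me2 level rose with gene length, from a median of -0.73 in genes of 10 to 30 kb to -0.04 in those of 100 to 300 kb and 0.18 in the 528 of over 300 kb, where H3K9me3 was at -0.10. Genes under 10 kb were at -0.40.

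In gene bodies, 895 genes (3.92%) were higher in H3K9me2 and 3343 (14.6%) were higher in H3K9me3. In promoters the numbers were 709 (3.94%) and 2408 (13.4%) of 18013. Most of these H3K9me3 calls were of genes low in both marks. Of the 3343 bodies, 564 had H3K9me3 at least 25% above input in all libraries, and 2396 had it below input in all of them, with H3K9me2 lower still. Of the 2408 promoters the figures were 433 and 1549. These bodies had a median of 18.4 CpG sites per kb against 12.3 in all bodies tested. For H3K9me2, 363 of the 895 bodies and 353 of the 709 promoters were at least 25% above input, and 74 and 36 were below it. After centring on the median window the calls were 245 and 4354 bodies and 367 and 3591 promoters. Bodies higher in H3K9me3 fell to 2031 without H3K9me3 day 4 and 1940 without its day 8 library 1. Promoters higher in H3K9me3 fell to 1171, 1029 and 1518 when each H3K9me3 library was left out, and those higher in H3K9me2 to 416 and 339 without H3K9me2 day 4 and day 8 library 2 and to 295 and 385 without H3K9me3 day 8 libraries 1 and 2.

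The genes with the most H3K9me2 relative to H3K9me3, among protein-coding genes of at least 5 tiles with H3K9me2 at least 25% above input in all libraries, included genes known from immune cells, kidney, stomach, prostate, liver and blood. The largest difference was in *Pira2*, an immunoglobulin-like receptor gene of immune cells, but it rested on 52 reads over the 6 libraries and the gene belongs to a family of close copies, from which reads of low mapping quality were discarded, so it is uncertain. *Slc6a18*, a kidney amino acid transporter gene on chromosome 13 (73799198 to 73815471), had the highest H3K9me2 level of the set at 1.43, 1.48 and 1.38, with H3K9me3 at 0.65, 0.35 and 0.16. Its difference was 1.04 ± 0.13 (SE, limma adjusted p = 0.00343), or 2.06-fold, and both marks were above input. *Sash3*, a lymphocyte adaptor gene on chromosome X (45499613 to 45514742), had H3K9me2 at 0.72, 0.70 and 0.94 and H3K9me3 at -0.18, -0.16 and -0.27. Here only H3K9me2 was above input, and the difference was 0.99 ± 0.11 (adjusted p = 0.00236). *Fgfrl1*, an FGF receptor relative without the kinase, was at 0.76, 0.69 and 0.89 against 0.03, -0.17 and -0.45. It also carried H3K27me3, at a mean of 1.56 over input.

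The rest of the 12 had differences of 0.83 to 0.91, with no overlap between the marks, by the rule that chose them. They were *A4gnt*, a glycosyltransferase gene of gastric mucin, *Sbp*, spermine binding protein, *Itih1*, a plasma protein gene of liver, *Vgll1*, a TEAD cofactor, *Epb4.2*, a protein of the red cell membrane, *Serpinf1*, a secreted serpin, *Fasl*, the death ligand of T cells, and *Noxa1*, an activator of NADPH oxidase. *Fasl* was at 0.71, 0.46 and 0.56 for H3K9me2 and at -0.14, -0.36 and -0.26 for H3K9me3, a difference of 0.83 ± 0.10 (adjusted p = 0.00311). *Epb4.2* was at 0.60, 0.40 and 0.49 against -0.43, -0.30 and -0.32. *Noxa1* was the only one of these 8 with H3K9me3 above input in every library, at 0.11, 0.20 and 0.04. Over all 12 the difference was 1.77-fold to 2.27-fold.

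The 12 named for H3K9me3 differed by 5.11-fold to 13.3-fold. *Blcap* on chromosome 2 (157382098 to 157397010) had H3K9me3 at 1.52, 1.91 and 1.34 and H3K9me2 at -2.42, -2.19 and -1.81, a difference of -3.73 ± 0.20 (adjusted p = 0.000225), or 13.3-fold. The paternally expressed gene *Nnat* lies inside it, and the reads of the overlap counted for both. *Il3ra*, the alpha chain of the interleukin 3 receptor, was at 2.77, 3.15 and 2.80 against -0.50, -0.45 and -0.42. *Polrmt*, whose focal tile is given above, was at 2.59, 2.80 and 2.23 against -0.52, -0.48 and -0.27. *Zfp629* was at 2.91, 3.51 and 2.44 against -0.20, -0.14 and -0.03, and had H3K27me3 at a mean of 1.65. In *Il3ra*, *Polrmt* and *Zfp629* H3K9me2 lay a little below input, and in *Blcap* far below it.

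Most of the others had H3K9me2 clearly below input. *Habp4*, *Ccrn4l* (nocturnin), *Smo*, the signal transducer of Hedgehog, *Ezr* (ezrin), *Wbscr27*, *Zfp706* and *Terf1*, which binds telomere repeats, had H3K9me2 between -2.50 and -0.74 in single libraries and H3K9me3 between 0.61 and 2.36. *Smo* was at 1.61, 2.08 and 1.24 for H3K9me3 and at -0.75, -0.96 and -1.03 for H3K9me2, a difference of -2.56 ± 0.20 (adjusted p = 0.000757), or 5.88-fold. *Ezr* over 44.7 kb was at 1.51, 2.03 and 1.10 against -0.90, -1.08 and -0.92. *H2-T24*, a non-classical MHC class I gene of a family of close copies with 43.8% high-copy sequence, was at 2.27, 2.87 and 2.16 against 0.22, -0.81 and -0.69 and is uncertain. H3K9me3 was highest in day 8 library 1 in all 12.

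**Figure D3:**
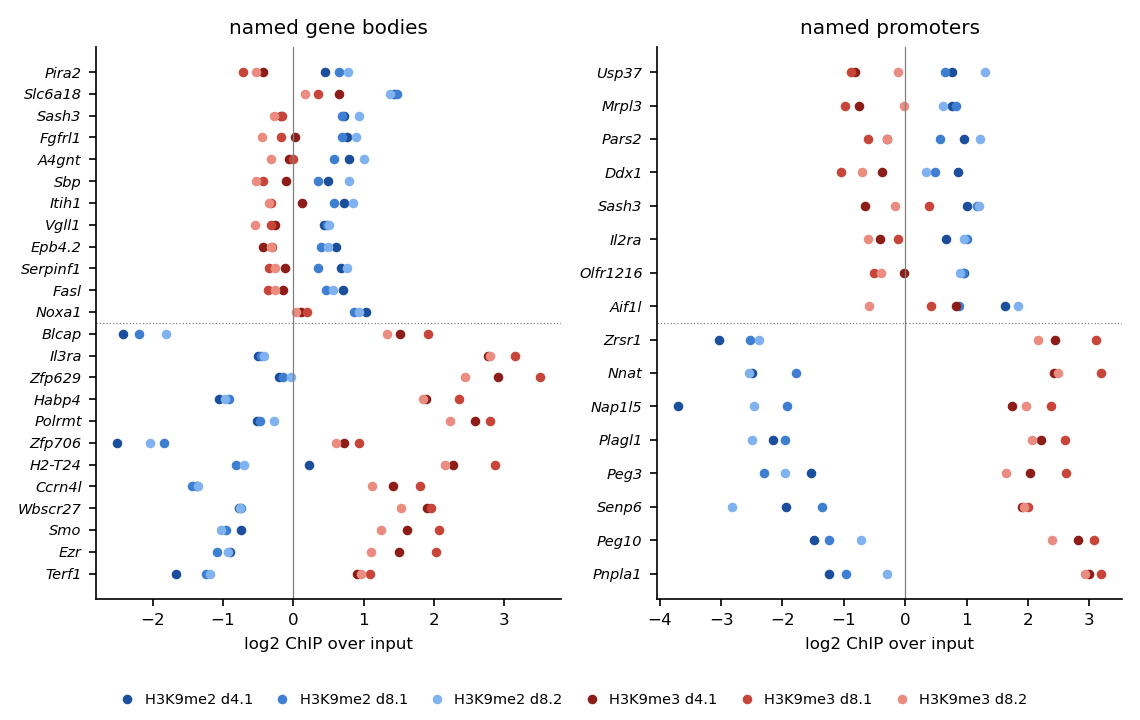
Log2 ChIP over input (horizontal) of the named gene bodies (left) and promoters (right) in each of the 3 H3K9me2 libraries (blue) and 3 H3K9me3 libraries (red), with genes named for H3K9me2 above the dotted line and those named for H3K9me3 below it. Below the line the marks are separated by wider gaps than above it, and most blue points lie under 0.

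In promoters the largest differences were at imprinted genes. Of the 8 named for H3K9me3, 6 were of the imprinted list, namely *Zrsr1*, *Nnat*, *Nap1l5*, *Plagl1*, *Peg3* and *Peg10*, which are expressed from the paternal allele. *Zrsr1* on chromosome 11 (22873215 to 22876498) had H3K9me3 at 2.44, 3.10 and 2.16 and H3K9me2 at -3.03, -2.53 and -2.39, a difference of -5.22 ± 0.27 (adjusted p = 8.9e-14), or 37.2-fold. *Nnat* stood at 2.43, 3.19 and 2.49 against -2.49, -1.79 and -2.55, and *Plagl1*, a zinc finger transcription factor gene, at 2.21, 2.60 and 2.06 against -2.15, -1.95 and -2.49. The other two were *Senp6*, a SUMO protease gene, at 1.90, 2.00 and 1.94 against -1.95, -1.36 and -2.82, and *Pnpla1*, a lipid enzyme gene of skin, with H3K9me3 between 2.92 and 3.19 and H3K9me2 between -1.23 and -0.30. Each of these promoters is 1 or 2 tiles with 267 to 565 reads over the 6 libraries.

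The 8 promoters named for H3K9me2 differed by 1.23 to 1.51 and held 78 to 236 reads. *Usp37*, a deubiquitinase gene, was at 0.76, 0.64 and 1.30 against -0.81, -0.89 and -0.12, a difference of 1.51 ± 0.27 (adjusted p = 0.00043), or 2.84-fold. *Sash3* was at 1.01, 1.17 and 1.20 against -0.65, 0.39 and -0.17. Its promoter is 1 tile of 78 reads that also belongs to its body, so the 2 are not independent. Unlike in the body, H3K9me3 was above input there in day 8 library 1. *Il2ra*, the interleukin 2 receptor alpha chain, was at 0.67, 1.01 and 0.96 against -0.42, -0.12 and -0.61. The olfactory receptor gene *Olfr1216* was at 0.96, 0.95 and 0.90 against -0.02, -0.51 and -0.40. *Mrpl3* and *Pars2*, of mitochondrial translation, and the helicase gene *Ddx1* were also named, with H3K9me2 between 0.34 and 1.21. *Aif1l* was at 1.63, 0.88 and 1.84 against 0.83, 0.43 and -0.60 and carried H3K27me3 at a mean of 3.26. It lost its call without H3K9me2 day 8 library 2 (adjusted p = 0.0532) or H3K9me3 day 8 library 2 (adjusted p = 0.0684).

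The promoters higher in H3K9me2 had fewer CpG sites than those tested and those higher in H3K9me3 more, but not where H3K9me3 was itself raised. The median in the 1 kb upstream was 8 sites for the former, 30 for the latter and 16 over the 18013 tested, but 10 for the 433 promoters higher in H3K9me3 and at least 25% above input. TGCCGC stood in 7.48% of the former, 26.2% of the latter and 16.5% of those tested, and in 16.6% of the 433. Stretches of 150 bases upstream of 4 of the named genes show the range of CpG density, with CG in capitals, from the NCBIM37 genome and written in the direction of the gene. They were chosen after their values were seen, and run from the base before the start for *Sash3* (chrX:45499463-45499612), *Olfr1216* (chr2:88854220-88854369, minus strand), *Plagl1* (chr10:12810347-12810496) and *Senp6* (chr9:79914630-79914779).
Sash3: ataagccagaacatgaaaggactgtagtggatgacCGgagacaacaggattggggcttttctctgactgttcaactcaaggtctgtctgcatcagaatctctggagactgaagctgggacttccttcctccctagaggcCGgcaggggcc
Olfr1216: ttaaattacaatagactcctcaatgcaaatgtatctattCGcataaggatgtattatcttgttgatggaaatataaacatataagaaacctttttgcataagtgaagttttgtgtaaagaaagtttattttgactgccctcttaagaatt
Plagl1: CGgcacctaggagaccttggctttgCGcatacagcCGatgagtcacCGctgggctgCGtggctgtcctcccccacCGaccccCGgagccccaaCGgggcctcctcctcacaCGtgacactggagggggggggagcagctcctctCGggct
Senp6: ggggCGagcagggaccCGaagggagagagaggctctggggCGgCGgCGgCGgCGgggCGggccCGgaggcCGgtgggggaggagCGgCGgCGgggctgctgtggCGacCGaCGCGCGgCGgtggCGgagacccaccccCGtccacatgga
The stretches of *Sash3* and *Olfr1216* hold 2 and 1 CpG sites, and those of *Plagl1* and *Senp6* hold 10 and 21. Other named promoters go against this order. Of those named for H3K9me2, *Aif1l* has 21 and *Pars2* 10 in the same stretch, and of those named for H3K9me3, *Peg3* has 4. *Nap1l5*, also named for H3K9me3, has 2, but in a stretch 546 to 695 bases upstream. The whole 1 kb upstream holds 32 sites in *Peg3* and 20 in *Nap1l5*.

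Gene lists were read by their counts beside those of all gene bodies tested (3.92% higher in H3K9me2, 14.6% higher in H3K9me3, median difference 0.02), and genes of a list often lie side by side in clusters and share windows. Olfactory receptors, which detect odours in the nose, and keratins, which build hair and skin, had more calls for H3K9me2 than for H3K9me3. This order turned for keratins after centring and for promoters of olfactory receptors with the GC trend removed. Of 1108 olfactory receptor genes, 147 (13.3%) were higher in H3K9me2 and 36 (3.25%) in H3K9me3, with a median difference of 0.30. After centring these were 53 and 40, with a median of 0.16, and with the GC trend removed 79 and 46, with a median of 0.15. The largest H3K9me2 difference was in *Olfr420*, at 0.23, 0.40 and 0.27 against -0.84, -1.30 and -0.86, and the largest in the other direction in *Olfr1055*, at -1.23, -0.96 and -1.67 against 1.75, 1.98 and 1.62. Members thus went both ways. In 1106 promoters of this list 95 (8.59%) were higher in H3K9me2 and 29 (2.62%) in H3K9me3, against 3.94% and 13.4% of all promoters. With the GC trend removed the promoter order turned, to 16 and 42, with a median of -0.07. Of 96 keratin and keratin-associated genes, 14 (14.6%) were higher in H3K9me2 and 3 in H3K9me3, with a median of 0.38, and after centring 2 and 4 were, with a median of 0.24. With the GC trend removed they were 30 and 4. In 41 keratin genes H3K9me2 was at least 25% above input in all libraries. *Krtap1-4* was at 0.57, 0.53 and 0.43 against -0.16, -0.45 and -0.60. Of 282 vomeronasal receptor genes, 6 were higher in H3K9me2 and 37 (13.1%) in H3K9me3, among them *Vmn1r215*, at 1.96, 1.47 and 1.45 for H3K9me3 and -0.25, -0.86 and -0.29 for H3K9me2.

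The 53 genes of synaptic adhesion, with a median of 291 tiles, had a median difference of 0.32, yet none was higher in H3K9me2 by the 1.5-fold rule and 1 was higher in H3K9me3. The median was 0.18 after centring and 0.20 with the GC trend removed, and in 43 promoters of the list it was -0.13, with 2 calls for H3K9me2 and 6 for H3K9me3. Their median levels were 0.01, 0.16 and 0.01 for H3K9me2 and -0.27, -0.30 and -0.23 for H3K9me3. Of 29 prolactin family genes, 1 was called, *Prl* itself, higher in H3K9me2 at a difference of 0.66 ± 0.17 (adjusted p = 0.0265). No prolactin gene was called after centring or with the GC trend removed. Of 51 germline genes, 2 were higher in H3K9me3, among them *Dpep3*, a dipeptidase gene of testis. Their median difference of 0.12 turned to -0.02 after centring, as that of the vomeronasal receptors turned from 0.03 to -0.11. With GC trend removal it was 0.05 for the germline genes and -0.14 for the receptors.

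Ribosomal protein genes, which all cells use, and Hox genes, known targets of Polycomb, had medians below input for both marks and lower for H3K9me2. Of 72 ribosomal protein genes, 38 (52.8%) were called higher in H3K9me3, with medians of -2.11 for H3K9me2 and -1.25 for H3K9me3. Of 40 Hox genes, 27 (67.5%) were, at -2.16 and -0.98 beside a median H3K27me3 level of 4.45. *Hoxa9* was at -3.63, -3.35 and -3.02 against -0.93, -0.91 and -1.10. Clustered protocadherins had 7 of 24 and histone genes 5 of 26, and 41 of the 67 histone genes could not be tested for want of reads. H3K9me3 was at least 25% above input in all libraries in 1 ribosomal protein gene and in no Hox, protocadherin or histone gene.

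The markers of ESCs were low in both marks too. Of 22 pluripotency genes, 8 were higher in H3K9me3, among them *Nanog* at -2.19 ± 0.138 for H3K9me2 and -0.91 ± 0.214 for H3K9me3 (SD, n = 3) and *Pou5f1* at -1.96 ± 0.149 and -1.09 ± 0.189, and none had either mark at least 25% above input in all libraries. Of the bodies of 5 markers of fibroblast feeder cells, 0 were called, with medians of -0.41 for H3K9me2 and -0.43 for H3K9me3. Among them *Vim* was at -1.71 and -1.26 and *Fn1* at -0.41 and -0.60, both below the median of H3K9me3. Of 34 genes of the H3K9 methylation machinery, 4 were higher in H3K9me3, *Ehmt2*, *Trim28*, *Daxx* and *Cbx1*, and in each both marks were below input. *Trim28*, the corepressor of zinc finger proteins, was at -2.44, -2.93 and -3.04 for H3K9me2 and -1.17, -0.89 and -1.30 for H3K9me3. Among promoters of this list, 1 of 2 annotated as *Atf7ip*, a partner of SETDB1, carried H3K9me3 at 0.50, 1.16 and 1.24 against -0.95, -1.40 and -1.49, a difference of -2.25 ± 0.26 (adjusted p = 6.7e-07). *Dnmt1* had both marks below input in its body, at -0.83 ± 0.294 and -0.69 ± 0.117.

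Imprinted genes, expressed from 1 parental allele, had a median H3K9me3 level above input and a median H3K9me2 level below it, at 0.29 and -0.35 in bodies. Of 42 imprinted genes, 15 (35.7%) were higher in H3K9me3 and 0 in H3K9me2, and of 35 promoters 14 (40%) and 0 (limma). Their promoters had medians of 0.33 for H3K9me3 and -1.11 for H3K9me2. Several of these genes share a locus, as *Zrsr1* lies in *Commd1*, *Nap1l5* in *Herc3* and *Peg10* beside *Sgce*, and they are not independent. Around 38 starts of imprinted genes H3K9me3 stood at 1.02, 1.45 and 0.80 and H3K9me2 at -1.24, -1.36 and -1.42. Members differed. *Rtl1* had both marks above input, at 0.71 ± 0.147 for H3K9me2 and 0.83 ± 0.0558 for H3K9me3, as had *Usp29*, and the maternally expressed *Meg3* had H3K9me2 at 0.70 ± 0.0259 below H3K9me3 at 1.38 ± 0.170. *Ube3a* was below input for both, at -1.88 ± 0.130 and -1.74 ± 0.120.

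Of 396 zinc finger genes, 96 (24.2%) were higher in H3K9me3 and 2 in H3K9me2, with a median difference of -0.23 and median levels of -0.73 for H3K9me2 and -0.58 for H3K9me3, and 32 had H3K9me3 at least 25% above input. The largest was *Zfp125*, at 1.30, 1.97 and 1.76 for H3K9me3 and -1.94, -1.72 and -2.06 for H3K9me2, and *Zfp563* was higher in H3K9me2 at 0.65 ± 0.15 (adjusted p = 0.0166), with H3K9me2 itself at a mean of -0.13. After centring none was higher in H3K9me2 and 131 were higher in H3K9me3. Promoters of the list were near the shares of all promoters. Of 296, 38 (12.8%) were higher in H3K9me3 and 9 (3.04%) in H3K9me2, against 13.4% and 3.94%. H3K9me3 at the 3′ end of these genes, where the exons of the fingers lie, was at -0.10, -0.08 and -0.16, above its level of -0.39, -0.46 and -0.45 at 10 kb before the end, but at 2 kb beyond it was at -0.06, -0.06 and -0.14, higher in every library, and at 10 kb beyond at -0.08, -0.12 and -0.11. H3K9me2 was at -0.63, -0.74 and -0.56 at 10 kb before the end, -0.51, -0.63 and -0.50 at it and -0.36, -0.48 and -0.36 at 10 kb beyond. Of 16 genes of the 2-cell stage, 3 were higher in H3K9me3 and 1, *Arg2*, in H3K9me2, and both marks were above input in the median, at 0.27 for H3K9me2 and 0.48 for H3K9me3. *Arg2*, an arginase gene, was at 0.35, 0.46 and 0.41 against -0.35, -0.31 and -0.26, and its call was lost after centring.

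**Figure D4:**
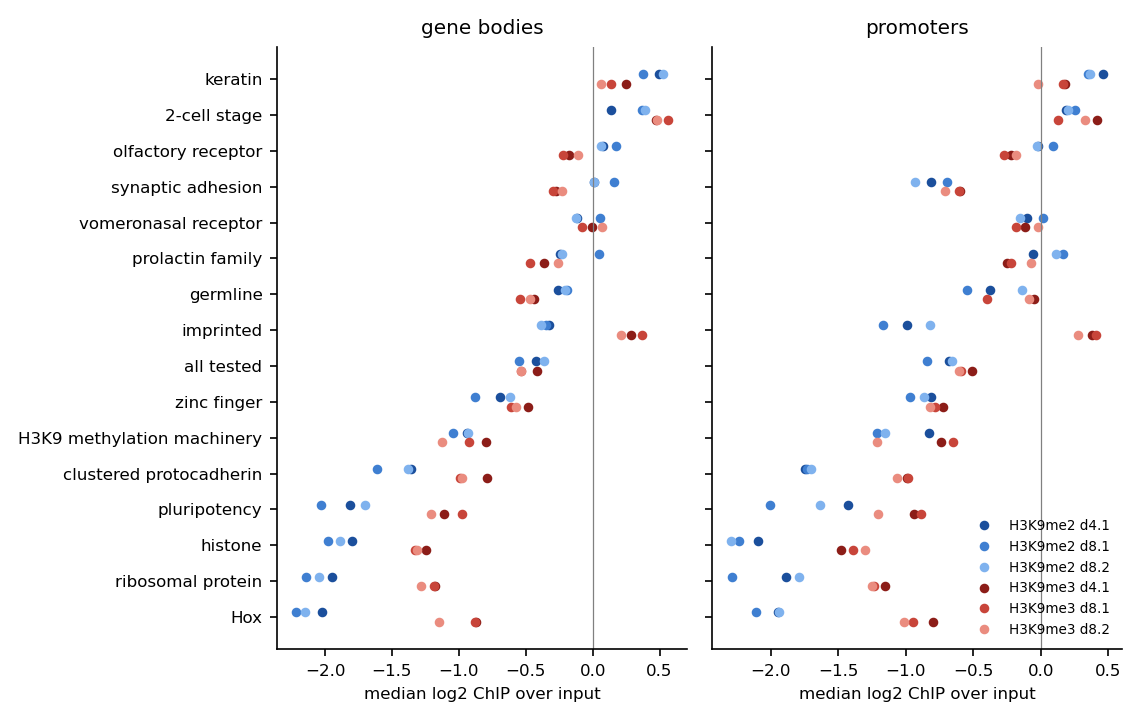
Median log2 ChIP over input (horizontal) over the genes of each list, for gene bodies (left) and promoters (right), with a point for each of the 3 H3K9me2 libraries (blue) and 3 H3K9me3 libraries (red). Keratin, olfactory receptor and synaptic adhesion bodies lie higher in H3K9me2, imprinted genes lie higher in H3K9me3, and the lists at the foot lie below input in both marks and further below in H3K9me2.

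Levels of both marks varied with CpG sites and with high-copy sequence. Autosomal windows of 100 kb with at least 300 input reads were ranked into deciles. In the decile richest in CpG sites (13.4 to 34.8 per kb) the median level was -0.56 for H3K9me2 and -0.44 for H3K9me3, and 14.9% of these windows were higher in H3K9me3. The libraries overlapped there, at -0.50, -0.76 and -0.43 against -0.32, -0.46 and -0.52, and in the decile richest in GC the medians were -0.26 and -0.28. In the decile poorest in CpG sites the levels were 0.06 and -0.13. By high-copy sequence the order of the marks turned. In the lowest decile H3K9me2 was at 0.22 and H3K9me3 at -0.09, and in the highest decile, where 16.6% to 41.4% of the sequence was high-copy, H3K9me2 was at 0.05 and H3K9me3 at 0.16, with 15% of windows higher in H3K9me3 and 0.127% higher in H3K9me2. H3K9me2 day 8 library 1, the lowest in the CpG-richest decile, also had the most windows 2-fold below input. Only reads of high mapping quality were kept, so high-copy tiles show the part of repeats that can be placed. Across 23523 windows, described without a test, high-copy share correlated with H3K9me3 at r = 0.332 (rho = 0.277) and with H3K9me2 at r = 0.0969 (rho = -0.000450), and gene cover with H3K9me3 at r = -0.369 and with H3K9me2 at r = -0.262.

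**Figure D5:**
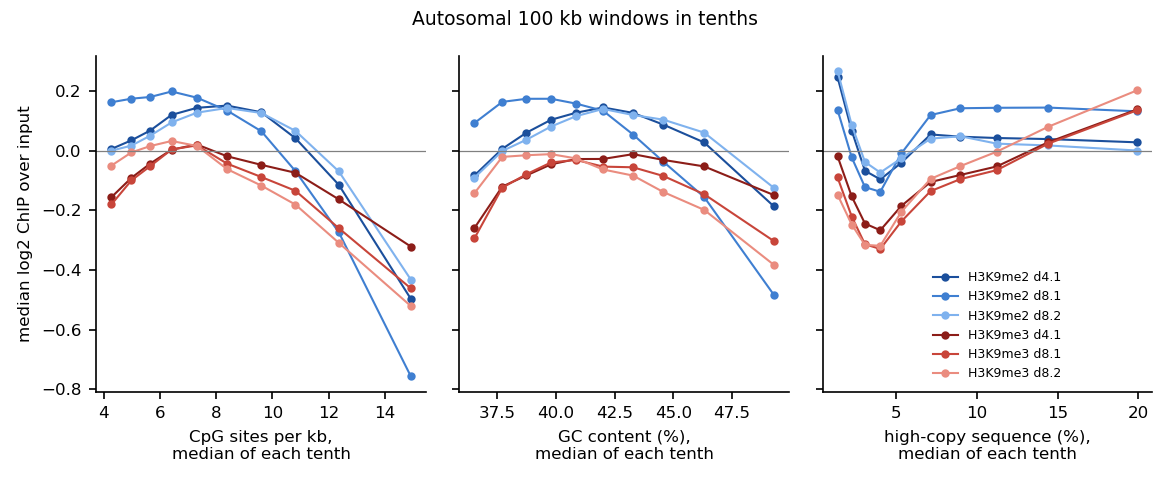
Median log2 ChIP over input (vertical) of autosomal 100 kb windows in deciles of CpG sites per kb, GC content and high-copy sequence (horizontal, median of each decile), for the H3K9me2 libraries (blue) and H3K9me3 libraries (red). Both marks fall in the CpG-richest decile, and in the decile richest in high-copy sequence the H3K9me2 libraries (up to 0.13) lie below the H3K9me3 libraries (from 0.14).

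Chromosomes were compared over windows with at least 300 input reads. The median window level of H3K9me2 ran from -0.07 on X to 0.13 on 8 among chromosomes other than Y, and that of H3K9me3 from -0.18 on X to -0.01 on 7. Chromosome 7, which also held the longest H3K9me3 domains, had 148 of its 1318 such windows higher in H3K9me3 (11.2%). The other chromosomes besides Y ran from 3.51% on 12 to 9.29% on 17. Over all 25549 windows tested, without this filter, the share was 7.4%. Only 6 windows on Y passed the filter. They had H3K9me3 at 1.33, 1.48 and 1.46 and H3K9me2 at 0.19, 0.32 and 0.17, and all 6 were higher in H3K9me3.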

How the data were processed

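The authors trimmed reads with Trim Galore, aligned them with Bowtie2 (2.2.9 in the submitters' processing notes) to NCBIM37 (Ensembl 67), discarded mapping qualities under 20 and deposited log2 observed over expected reads per 2 kb tile, whereas the methods give tiles of 1 kb. Duplicate removal is not given in the sources used here. Input was not subtracted. The deposited expectation was 1.30 times the mean tile in every library and cancels in differences. Whole reads were recovered for 100% of values (tolerance 0.02), with empty tiles deposited as 0.9 of a read. They were summed over tiles of features, as log2 observed over expected with a prior of 2 reads scaled to the library. Summed levels of focal and CpG-rich tiles used a prior of 2 reads for the 3 libraries together and 2 for the input. The mitochondrial chromosome and 222 tiles of high input were left out. Features with at least 30 reads over the 6 libraries were tested with limma 3.58.1 in R 4.3.3 (lmFit, eBayes with a trend, no block, two-sided, Benjamini-Hochberg). A called feature had an adjusted p-value under 0.05 and at least 1.5-fold. Single measures used an exact permutation test over libraries. Genes were 22367 protein-coding and 1273 lincRNA genes. Without strand, overlapping genes share reads. Named genes were the largest differences per direction among called protein-coding genes whose libraries did not overlap between marks and whose own mark was at least 25% above input, at least 1 Mb apart (12 bodies of at least 5 tiles and 8 promoters), with 4 windows at least 5 Mb apart and 6 focal tiles, and the largest member of each list. *Atf7ip*, *Nanog*, *Pou5f1*, *Dnmt1*, *Vim*, *Fn1*, *Rtl1*, *Usp29*, *Meg3*, *Ube3a* and the domains' genes were named from lists or after values were seen. Members, lists and tests were chosen with earlier results of these data known. On simulated reads for 22859 gene bodies, 69% of 2-fold and 99% of 4-fold differences were recovered, with 8 false calls. The simulation had 100 differences of each size, independent libraries, a single assumed dispersion and no offset between marks. It therefore gives no error rate for the calls reported here. The other 9 libraries were not used.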

Additional observations from a re-analysis of the deposited data

How the results depend on the processing

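Of 100 recomputed counts and shares outside those that leave out a library, 69 stayed within 1.5 times the reported value or its spread and 31 did not, and of 640 fits of the named genes 638 kept direction and call. The cause was not tested where none is given. Without a minimum fold, 11856 and 5366 windows and 4068 gene bodies (H3K9me2) passed. Without the variance trend 33419 tiles and 286 promoters were higher in H3K9me2. With the GC trend removed 349 windows and 1349 bodies were higher in H3K9me2. Centring on the median window left 25797 tiles, 4 windows, 245 bodies and 367 promoters for H3K9me2. Domain shares of H3K9me2 and H3K9me3 were 7.56% and 3.45% at 25% above input, 0.0115% and 0.150% at 2-fold, 10.97% and 9.82% with no minimum run, and 0.121% and 0.177% over expectation in place of input. The covariance kept at 100 kb was 35.2% and 29.6% on autosomes, 34.9% and 27.3% with input subtracted, and 31.3% for H3K9me3 on a linear scale. Focal tiles numbered 222 and 14031 at 2-fold and 0 and 47 at 8-fold, and 59 for H3K9me2 with no requirement over input.

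Leaving out a library in turn gave 37978 to 53883 and 66240 to 75395 tiles, 191 to 310 and 1772 to 2003 windows, 680 to 1275 and 1940 to 3105 bodies, 295 to 540 and 1029 to 2355 promoters, and 9 to 20 and 919 to 1515 focal tiles (H3K9me2 and H3K9me3). Domain shares were then 0.996% to 1.45% and 0.858% to 0.977%, and the covariance kept was 37.7% to 41.4% and 36.7% to 38.0%. *Aif1l* was at 1.03 without H3K9me2 day 8 library 2 and 0.82 without H3K9me3 day 8 library 2.

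Deviations from the mark means in libraries of the same day and number correlated over windows at 0.37, -0.03 and -0.42. Libraries of unlike day or number ran from -0.58 to 0.54. Deviations from a mean of 3 libraries depend on each other, so this cannot decide whether the numbers pair the libraries. With the replicate block 209 and 1892 windows, 871 and 3052 bodies and 680 and 2408 promoters were called, and with the block and the GC trend removed 349 windows and 1431 bodies were higher in H3K9me2. Single tiles held a median of 11 to 17 reads, and intervals and tests cover the spread of these libraries only.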
